A study of Mus musculus with 4 samples.

Results

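Ret, its 4 GFRα co-receptor genes (Gfra1 to Gfra4) and the 4 ligand genes of the GDNF family (Gdnf, Nrtn, Artn, Pspn) were followed in RNA of mesenchymal stem cells from mouse bone marrow, the stromal progenitors of bone, marrow fat and cartilage. The 9 genes were taken by symbol, and each matched 1 of the 54532 rows of the gene table. The set was selected on the CPM of Ret in these same libraries, already known to differ between the groups. For all 9 genes the difference between groups is therefore given as a description, without a test.

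The 4 libraries came from C57BL/6J mice aged 1 month, all given as male. Cells of 2 animals came from crosses of floxed Rheb mice with a Ucp1-Cre line and were labelled as lacking Rheb in brown adipocytes. The other 2 came from control littermates, and the sources used here do not give their alleles. Rheb is the small GTPase that activates mTORC1, and the Ucp1 promoter drives Cre in brown adipocytes and not, by design, in the marrow cells that were sequenced. The sources used here describe neither isolation nor culture of the cells. Nothing in the labels pairs animals across the groups.

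RET is a receptor tyrosine kinase that does not bind its ligands alone. A GDNF-family ligand first binds a GFRα protein held in the membrane by a lipid anchor, and this complex then brings RET molecules together and activates the kinase. Each ligand has a preferred partner: GDNF binds GFRα1, neurturin (Nrtn) GFRα2, artemin (Artn) GFRα3 and persephin (Pspn) GFRα4. The system is best known for building the enteric nervous system and the kidney, and in mouse marrow Ret has been studied as a survival receptor of haematopoietic stem cells.

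Before the genes of the family are described, some facts of the libraries bear on every value. Total counts ran from 17425669 to 19001878. Rheb had 89.7 and 81.5 CPM (counts scaled to library size, with TMM factors) in controls and 129.2 and 121.3 CPM in the other group. It was thus not lower in the animals labelled as deleted. The deletion is labelled for brown adipocytes, and Ucp1 had 0 counts in both controls and 0 and 1 in the other group. These marrow values therefore do not test the deletion. The group is called labelled knockout throughout, after its label. Replicate numbers went with sex-linked RNAs in both groups: Xist had 19502 and 31103 counts in the libraries numbered 1 and 8 and 2 in those numbered 2, although all animals were given as male. Values within each replicate number are therefore given too. Over all 14963 genes with enough reads, edgeR's quasi-likelihood test called 0% at an adjusted p under 0.05. At an unadjusted p under 0.05 it had 278 genes. DESeq2 called 0.154% and limma-voom 0 genes. The preparations held RNA of 13 of 13 listed marrow stromal markers, summed to between 21651 and 31910 CPM. That list includes the collagen genes Col1a1 and Col1a2. In the same list Cxcl12 ran from 359.0 to 892.1 CPM and Lepr from 2.5 to 4.3 CPM. Macrophage RNA was also present (12 of 12 markers, 8050 to 11473 CPM).

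Ret was the most abundant gene of the family in every library and had a 2.22-fold higher mean in the labelled knockout group, while Gfra1, Gfra2 and Gfra4 had lower levels there. The ligand genes Gdnf and Artn overlapped between the groups, and Gfra3, Nrtn and Pspn were at the edge of detection. Among the 6 members with enough reads to enter the fit, the groups did not overlap for 4 (1 higher, 3 lower). Of all tested genes 22.0% did not overlap, 10.8% with the labelled knockout higher and 11.3% with it lower. Because the choice of members used this contrast, nothing is read from that count.

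Ret (ENSMUSG00000030110; mm10 chromosome 6, 118151745 to 118197718, minus strand; protein coding, 6763 exonic bases) had 452 and 425 counts in control replicates 1 and 2 and 875 and 922 counts in the replicates 1 and 2 labelled knockout. As CPM these were 24.1 and 22.4 in controls and 49.97 and 53.1 in the labelled knockout libraries. The 2 libraries of each group lay close together and the groups were far apart. The group means were 23.3 ± 1.24 CPM and 51.5 ± 2.23 CPM (SD, n = 2 each). The fitted log2 fold change was 1.15 (SE 0.22). It was 1.05 within replicate 1 and 1.24 within replicate 2, positive in both. Of all tested genes, 1.01% had a log2 fold change at or above that of Ret, and nothing is read from this share. In bulk RNA, more cells that express Ret and more Ret RNA per cell cannot be told apart.

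**Figure D1:**
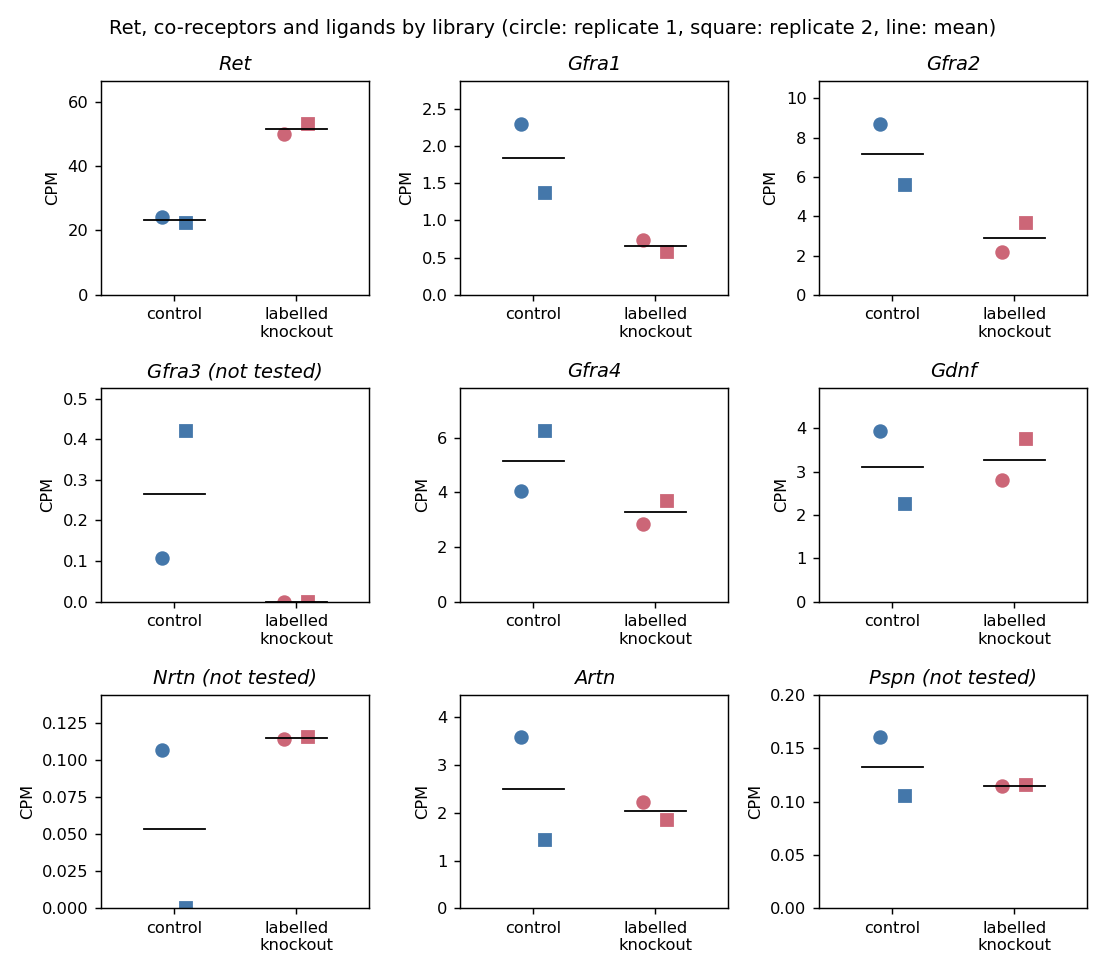
Level in CPM (vertical axes, each from 0) of the 9 genes in each library, with circles for replicate 1, squares for replicate 2 and a line at the group mean. Ret lies between 22.4 and 24.1 CPM in controls and between 49.97 and 53.1 CPM in the labelled knockout libraries; Gfra1, Gfra2 and Gfra4 lie lower in the labelled knockout, and Gdnf and Artn overlap.

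The co-receptor genes lay the other way. Gfra2 (ENSMUSG00000022103; chromosome 14, 70890120 to 70979838, plus strand; protein coding), which encodes the partner of neurturin, had 163 and 106 counts in controls and 38 and 63 counts in the labelled knockout libraries. Both labelled knockout libraries were below both controls, and replicate 1 showed the wider gap. The means were 7.14 ± 2.21 CPM and 2.90 ± 1.03 CPM (SD, n = 2 each), 2.46-fold lower in the labelled knockout, with a fitted log2 fold change of -1.30 (SE 0.41). The ratio of the replicates 1 was -1.96 on the log2 scale and that of the replicates 2 was -0.61. The sign was the same in both, but the size was not.

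Gfra1 (ENSMUSG00000025089; chromosome 19, 58235604 to 58455909, minus strand; protein coding), the GDNF co-receptor, was read sparsely, with 43 and 26 counts in controls and 13 and 10 counts in the labelled knockout libraries. Both controls were above both labelled knockout libraries. Of all tested genes 0.749% had a log2 fold change at or below that of Gfra1, a share given for scale only. The means were 1.83 ± 0.66 CPM and 0.659 ± 0.117 CPM (SD, n = 2 each), and the fitted log2 fold change was -1.46 (SE 0.55). The ratio of the replicates 1 was -1.51 on the log2 scale and that of the replicates 2 was -1.12. Counting error alone is wide here: the exact Poisson 95% interval of the 26 counts runs from 17.0 to 38.1, and that of the 13 counts from 6.92 to 22.2, so these 2 libraries overlap. Gfra1 shares 416 of its exonic bases with the antisense gene Gm16277, which had 0 counts in every library, and the library kit does not mark strand.

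Gfra3 (ENSMUSG00000024366; chromosome 18, 34689903 to 34720387, minus strand; protein coding), the artemin co-receptor, had 2 and 8 counts in controls and 0 in both labelled knockout libraries. Taking 3 counts as the limit that an empty count allows gives 0.171 and 0.173 CPM in these libraries, and the exact Poisson 95% interval, which is 2-sided, runs to 3.69 counts. Both cover counting error alone, and Gfra3 was too sparse for a fold change.

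Gfra4 (ENSMUSG00000027316; chromosome 2, 131039632 to 131043088, minus strand; protein coding), the persephin co-receptor, had 76 and 119 counts in controls and 50 and 64 counts in the labelled knockout libraries. The groups did not overlap, but only narrowly, with 4.06 CPM in the lower control and 3.69 CPM in the higher labelled knockout library. The fitted log2 fold change was -0.66 (SE 0.39), and it was -0.30 when control replicate 2 was left out. The ratio was -0.49 between the replicates 1 and -0.75 between the replicates 2.

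Gfra1 and Gfra4, both lower in the labelled knockout, have annotated start windows of different make-up, and these are shown for that reason. RefSeq windows on GRCm38.p6 (mm10) were used, from 250 bases before to 50 after the start site and 5′ to 3′ on the minus strand. For each gene the window was the one at the start of the transcript deposited with the counts. For Gfra1 that start, 58455398, lies inside the outermost annotated base, 58455909. Which start these cells use was not tested. Of the 9 genes, 6 had such an entry, and Ret and Gfra2 were not among them. The Gfra1 window is chr19:58455349-58455648 and the Gfra4 window chr2:131043039-131043338. Capitals mark every CG dinucleotide.
Gfra1: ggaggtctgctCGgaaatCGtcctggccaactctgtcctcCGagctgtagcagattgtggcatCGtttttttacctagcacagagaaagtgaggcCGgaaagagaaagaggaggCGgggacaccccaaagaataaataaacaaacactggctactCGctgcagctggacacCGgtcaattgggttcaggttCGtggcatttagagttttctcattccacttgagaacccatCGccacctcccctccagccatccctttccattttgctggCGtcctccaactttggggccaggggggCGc
Gfra4: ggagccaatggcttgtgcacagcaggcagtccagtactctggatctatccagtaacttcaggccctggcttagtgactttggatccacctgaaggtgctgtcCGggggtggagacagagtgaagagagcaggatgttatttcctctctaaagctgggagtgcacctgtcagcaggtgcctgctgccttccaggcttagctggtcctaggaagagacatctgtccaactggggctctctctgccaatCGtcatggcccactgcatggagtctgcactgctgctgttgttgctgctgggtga
The Gfra1 window holds 12 CG dinucleotides and the Gfra4 window 2, against a median of 7 over 32851 windows of the same length, while their GC contents are alike (54.0% and 55.7%). Motifs were searched on both strands, and neither window holds any of those searched. The letters GGGCGG, a GC box, are in 35.7% of all windows. A GATA core written GATAA is in 25.4% of them. The SOX core ACAAAG is in 18.7%. The nuclear receptor site AGGTCA is in 16.3%. This says only that these letters are not in these windows.

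Among the ligand genes, Gdnf (ENSMUSG00000022144; chromosome 15, 7810846 to 7837575, plus strand; protein coding) had 74 and 43 counts in controls and 49 and 65 counts in the labelled knockout libraries. The groups overlapped fully. The means were 3.11 ± 1.19 CPM and 3.27 ± 0.67 CPM (SD, n = 2 each), with a fitted log2 fold change of 0.07 (SE 0.43). The ratio went opposite ways within the replicate numbers, -0.48 in replicate 1 and 0.70 in replicate 2. Artn (ENSMUSG00000028539; chromosome 4, 117926162 to 117929763, minus strand; protein coding) had 67 and 27 counts in controls and 39 and 32 counts in the labelled knockout libraries. The 2 controls lay on either side of the other group. Its fitted log2 fold change was -0.29 (SE 0.53), with -0.66 within replicate 1 and 0.35 within replicate 2.

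Nrtn (ENSMUSG00000039481; chromosome 17, 56751325 to 56757530, minus strand; protein coding) had 2 and 0 counts in controls and 2 in each labelled knockout library. Pspn (ENSMUSG00000002664; chromosome 17, 56999457 to 57000018, minus strand; protein coding) had 3 and 2 counts in controls and 2 in each labelled knockout library. Both lay at or under the level of 3 counts in all libraries, so no difference was detectable at this depth. The marrow preparations thus held few reads of the preferred ligands of GFRα2 and GFRα4, the co-receptors with the most RNA.

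**Figure D2:**
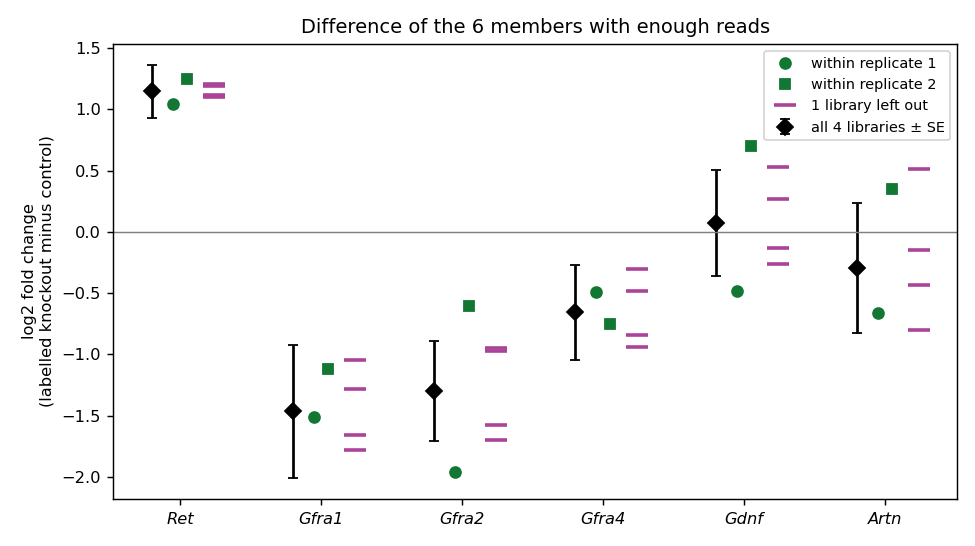
Log2 fold change (labelled knockout minus control, vertical axis) of the 6 members with enough reads: diamonds with bars are the fit over all 4 libraries ± SE, green symbols the ratio within each replicate number, purple dashes the fit with 1 library left out. Every value of Ret lies above 0 and every value of Gfra1, Gfra2 and Gfra4 below it, while Gdnf and Artn have values on both sides.

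Levels between genes were compared as CPM per kilobase of exon, which corrects for gene length. On this scale Ret ran from 3.31 to 7.86 over the 4 libraries and did not overlap with any other member. Gfra4 followed (1.32 to 2.89), then Gfra2 (0.613 to 2.46), Artn (0.591 to 1.49) and Gdnf (0.616 to 1.08). Among these 4, each overlapped with the next in the order, and all 4 lay above the remaining members. Those were Pspn (0.222 to 0.338), Gfra1 (0.105 to 0.419), Nrtn (0 to 0.113) and Gfra3 (0 to 0.211), which overlapped with one another in that order, and Pspn rested on 2 or 3 counts per library.

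Because Ret and the co-receptors lay in opposite directions, the ratio of their RNA necessarily differed more than either. The set was selected on Ret, so this ratio is a description and adds no separate result. Bulk RNA does not show whether Ret and co-receptor RNA came from the same cells. The 4 co-receptor genes summed to 4.81 and 4.93 CPM per kilobase in controls and 2.07 and 2.83 in the labelled knockout libraries. Ret had 0.742 and 0.671 times that sum in controls, and 3.57 and 2.77 times that sum in the labelled knockout libraries. Co-receptor RNA thus exceeded Ret RNA in both controls and was below it in both labelled knockout libraries. Within the co-receptor sum, Gfra2 held 51.2% and 32.0% in controls and 29.7% and 36.2% in the labelled knockout libraries, so its share overlapped. Gfra4 held 39.0% and 58.7% in controls against 63.8% and 60.1%. The 4 ligand genes summed to 3.01 and 1.43 CPM per kilobase in controls and 2.04 and 2.14 in the labelled knockout libraries, which overlapped.

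Other receptors and modulators of the family gave a mixed picture. Of 7 listed genes 6 had enough reads, and edgeR called 0 higher and 0 lower (1 at an unadjusted p under 0.05; 0 by DESeq2 and by limma-voom). Their median log2 fold change was 0.24, against -0.01 over all genes tested, with 0.05 for the replicates 1 and 0.27 for the replicates 2. Without labelled knockout replicate 2 the median was -0.0042. Ncam1, a cell adhesion molecule that can bind GDNF with GFRα1 in place of RET, had 105.6 and 117.2 CPM in controls against 88.2 and 76.5 CPM in the labelled knockout libraries. Its log2 fold change was -0.44 (SE 0.20). Gas1, a membrane protein related to the GFRα family, had 24.3 and 41.1 CPM in controls against 15.8 and 22.3 CPM in the labelled knockout libraries, a log2 fold change of -0.78 (SE 0.32). Lrig1, which restrains RET and other receptor kinases, had 26.9 and 25.5 CPM against 34.0 and 38.4 CPM (log2 fold change 0.47, SE 0.22). Gdf15, the ligand of the RET co-receptor GFRAL, had 14.5 and 15.0 CPM in controls against 16.6 and 24.7 CPM (log2 fold change 0.49, SE 0.28). Gfral itself had 1 count in all. The adjusted p by edgeR was 1 for each of these 4 tested genes.

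RNAs of RET adaptors and of proteins of proximal RET signalling were mostly detected well enough to test, and none passed. Of 22 tested adaptor and proximal signalling genes edgeR called 0 in either direction (0 at an unadjusted p under 0.05; 0 by DESeq2 and by limma-voom), with 15 at values above 0, 7 below and a median log2 fold change of 0.07. Dok5, an adaptor that binds RET, had 3.42 and 4.27 CPM in controls against 2.28 and 1.90 CPM in the labelled knockout libraries, a log2 fold change of -0.87 (SE 0.39). Dok2 had 0.46 (SE 0.33), the docking protein gene Gab2 0.22 (SE 0.20) and the insulin receptor substrate gene Irs1 -0.48 (SE 0.46). All 4 had an adjusted p of 1 by edgeR. Grb7 had too few reads.

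RET signals in part through ERK, whose activity raises genes such as Dusp, Spry and Etv members. Of 18 such genes, all tested, edgeR called 0 higher and 0 lower (0 at an unadjusted p under 0.05; 0 by DESeq2 and by limma-voom). Of these 15 had values above 0, with a median log2 fold change of 0.21. The median of the ratios was -0.03 within replicate 1 and 0.32 within replicate 2, so the shift was not shared by the replicate numbers. The groups did not overlap for 4 of the 18, all 4 higher, where 22.0% of all tested genes did not overlap and 10.8% were higher. Dusp4, a phosphatase of ERK, had 8.76 and 7.11 CPM in controls against 8.45 and 15.2 CPM in the labelled knockout libraries. The ETS factor gene Etv5 had 41.4 and 38.7 CPM against 47.8 and 49.7 CPM (log2 fold change 0.28, SE 0.20), and the feedback inhibitor gene Spry2 a log2 fold change of 0.41 (SE 0.30). The AP-1 gene Fosl1 had 0.48 (SE 0.32). The adjusted p by edgeR was 1 for all 4.

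Of 10 genes known to need Ret in the mouse ureteric bud, the epithelium that forms the collecting ducts of the kidney, all were tested and edgeR called 0 (1 at an unadjusted p under 0.05; 0 by DESeq2 and by limma-voom). Their median log2 fold change was 0.08, with -0.06 within replicate 1 and 0.31 within replicate 2. Met, the receptor of hepatocyte growth factor, had 24.1 and 16.6 CPM in controls against 29.2 and 39.6 CPM in the labelled knockout libraries, a log2 fold change of 0.76 (SE 0.28). The protease gene Mmp14 had -0.15 (SE 0.23) and the ETS factor gene Etv4 0.24 (SE 0.39). Adjusted p by edgeR was 1 for these 3 genes. Etv4 and Etv5, Spry1 and Dusp6 stand in this list and in the ERK list.

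Transcription factors that act on Ret in nerve, kidney or thyroid were mostly silent. Pax2 and Nkx2-1 had 0 counts in all libraries. Sox10 had 3, 5, 4 and 1 counts and Pax8 1, 13, 3 and 0, in the order control 1 and 2, labelled knockout 1 and 2. Of the 4 that could be tested edgeR called 0 (0 at an unadjusted p under 0.05; 0 by DESeq2 and by limma-voom). The log2 fold change was 0.39 (SE 0.64) for Gata3, with Rarb at -0.24 (SE 0.68), Rara -0.07 (SE 0.27) and Hoxb5 -0.02 (SE 0.63). The retinoic acid receptor gene Rara was the most abundant, with 38.3 and 56.3 CPM in controls against 37.7 and 52.6 CPM in the labelled knockout libraries.

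**Figure D3:**
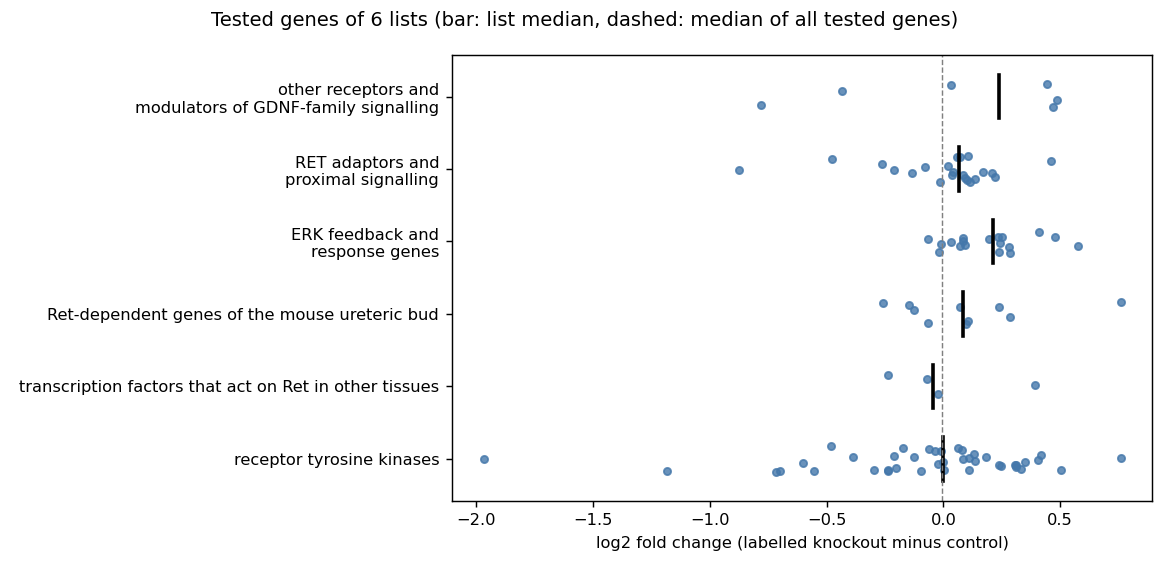
Log2 fold change (labelled knockout minus control, horizontal axis) of each tested gene in the 6 lists, with a bar at the list median and a dashed line at the median of all tested genes. The ERK list has its median at 0.21 and the receptor tyrosine kinase list at -0.0035, and no gene shown passed edgeR's test.

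Set against the 57 other receptor tyrosine kinase genes by CPM per kilobase, Ret had rank 24 of 58 by its mean in controls and rank 15 in the labelled knockout. In controls its neighbours in the order were the kinase gene Lmtk2 (3.38 and 3.73) and the ephrin receptor gene Epha3 (2.81 and 3.40), and both overlapped with Ret (3.57 and 3.31). In the labelled knockout Ret (7.39 and 7.86) overlapped with the ephrin receptor gene Epha2 (7.18 and 9.23) and the IGF1 receptor gene Igf1r (7.66 and 7.06). Of 41 other members tested, edgeR called 0 (3 at an unadjusted p under 0.05; 0 by DESeq2 and by limma-voom). Their median log2 fold change was -0.0035, with 7 higher and 4 lower without overlap of the groups (10.8% and 11.3% of all tested genes). Without control replicate 1, edgeR called 3 of them lower: Fgfr2, Fgfr3 and Pdgfra. Fgfr2 had 45.9 and 115.4 CPM in controls against 40.3 and 30.8 CPM in the labelled knockout libraries (log2 fold change -1.18, SE 0.40), so control replicate 2 stood apart from the other libraries. Fgfr3 had 1.23 and 6.21 CPM against 0.971 and 0.922 CPM (log2 fold change -1.97, SE 0.74), and Ror1 a log2 fold change of -0.72 (SE 0.35). In Ret the 2 controls differed far less.

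**Figure D4:**
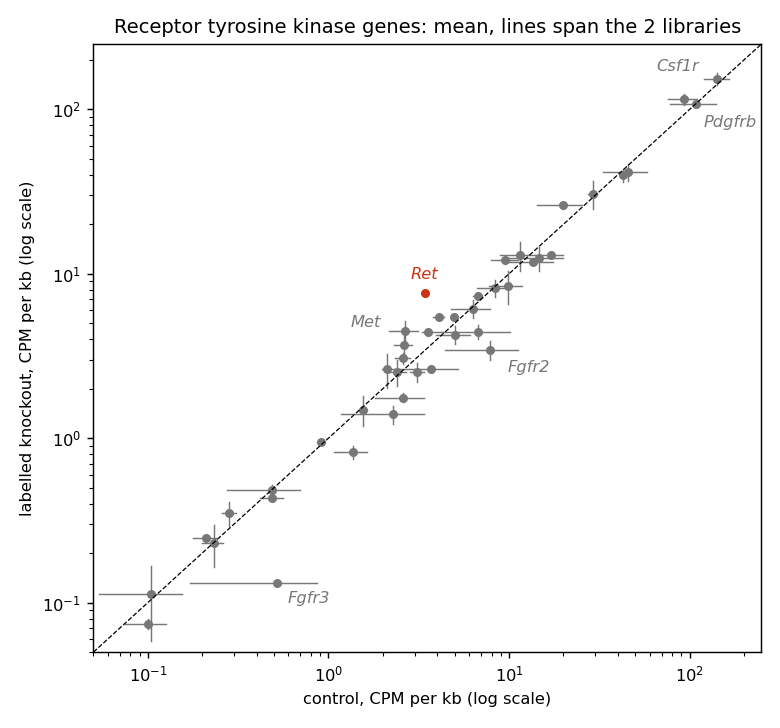
Mean level in CPM per kilobase (log scales) of 43 receptor tyrosine kinase genes above 0.05 in both groups, with controls on the horizontal and labelled knockout on the vertical axis. Lines span the 2 libraries of each group and the dashed line marks equal levels; Ret (red) lies above it, and Fgfr2 and Fgfr3 lie below it with a wide spread between controls.

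The profile of Ret over the 4 libraries was also set against those of 11742 other tested genes with a mean of at least 2 CPM. Predicted genes, pseudogenes and immunoglobulin genes were left out. The measure was the root mean square difference of centred log2 CPM. The nearest was Npr1, the receptor of atrial natriuretic peptide (0.04, where the median gene had 0.61), with 1.33 and 1.21 CPM in controls against 3.03 and 2.996 CPM in the labelled knockout libraries. Then came the kinesin gene Kif5a (0.19), Rap1gap2, which inactivates the GTPase RAP1 (0.21), Fry (0.23), Nhsl2 (0.23) and Stab2, a scavenger receptor of sinusoidal endothelium (0.24). The profiles hold 4 libraries, and the likeness is a description with no test.

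Markers of cell types that could bring Ret into the preparation were read beside it. The background for their counts is that 10.8% of all tested genes were higher and 11.3% lower without overlap, while the counts here also take in markers too sparse for the fit. Of 11 Schwann cell and neural crest markers 5 were tested, and their sum was 40.1 and 40.3 CPM in controls against 39.7 and 46.4 CPM in the labelled knockout libraries. Of 12 neuron markers 2 were tested (33.2 and 28.9 against 27.5 and 35.6 CPM), and Dbh, Snap25 and Syt1 were among those at 0 in all libraries. The sums of both lists overlapped between the groups while Ret did not, and without overlap 2 of the first were lower and 1 of the second was higher and 1 lower. The 8 markers of haematopoietic stem and progenitor cells summed to 120.6 and 143.2 CPM in controls against 126.4 and 162.3 CPM in the labelled knockout libraries, with 2 members higher and 3 lower without overlap. The 12 macrophage markers summed to 11473 and 8050 CPM in controls against 8938 and 10948 CPM in the labelled knockout libraries, and 1 was higher without overlap.

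Endothelial and B cell marker sums did not overlap between the groups. For the member counts below, the shares over all tested genes are again 10.8% higher and 11.3% lower without overlap. The 8 endothelial markers summed to 740.1 and 829.6 CPM in controls against 917.0 and 1050 CPM in the labelled knockout libraries, and 6 of 8 were higher without overlap, Stab2 among them. No endothelial marker was at 0 in all libraries. The 9 B and plasma cell markers summed to 714.1 and 264.3 CPM in controls against 124.7 and 53.1 CPM in the labelled knockout libraries, with 6 of 9 lower without overlap. Their part in the values of Ret and its co-receptors was not tested. The dendritic cell sum was higher without overlap too (366.9 and 305.8 against 375.8 and 496.6 CPM), with 1 of 11 members higher and 1 lower without overlap. Of 9 osteoblast markers 3 were lower and 1 higher without overlap. Their sum overlapped between the groups, but Spp1 made up 1684.5 of its 1787 CPM in control replicate 1. Alpl, the alkaline phosphatase of mineralising cells, had 34.7 and 122.0 CPM in controls against 24.6 and 20.5 CPM in the labelled knockout libraries, a log2 fold change of -1.80. The matrix protein gene Ibsp (-2.13) and the osteoblast transcription factor gene Sp7 (-2.15) lay the same way. Of the 6 osteoblast markers tested, 5 had a log2 fold change below 0 and 1 above. Gfra1, Gfra2 and Gfra4 shared the sign of Alpl, but the controls differed in order. Alpl and Gfra4 were higher in control replicate 2, while Gfra1 and Gfra2 were higher in control replicate 1. Of 13 stromal markers 12 had a log2 fold change below 0, with 2 lower and 1 higher without overlap. Their sum overlapped, with 21651 and 31910 CPM in controls against 22725 and 24776 CPM in the labelled knockout libraries. It was thus higher in the labelled knockout between the replicates 1 and lower between the replicates 2, where control replicate 2 had the highest sum. The part of these markers in the co-receptor values was not tested. The sums of neutrophil, T and NK cell, megakaryocyte, erythroid, mast cell and adipocyte markers overlapped between the groups. In these 6 lists 2 megakaryocyte markers were lower without overlap, and 2 adipocyte markers, 1 T and NK cell marker and 1 mast cell marker were higher.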

How the data were processed

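Per the submitters' processing notes, reads were handled with Trimmomatic, HISAT2 and featureCounts on mm10, without versions. The sources used here do not name the annotation release. The authors deposited whole-number read counts per gene with exon coordinates and length. Per the labels' protocols, Trizol RNA went into TruSeq v2 libraries, a kit without strand information. Group and replicate number came from the titles.

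The deposited counts were fitted in edgeR 4.0.16 (R 4.3.3) after filterByExpr, which kept 14963 of 54532 genes, and TMM scaling. Group was the only model term in a quasi-likelihood test, with Benjamini-Hochberg adjustment over all tested genes at 0.05. The SE is the size of the log2 fold change over the square root of F. Ratios within a replicate number used CPM + 0.1. The fit was also run on simulated counts with the same dispersion for every gene and no replicate effect. That run checked the calculation and says nothing about error rates in these libraries. For the 102 symbols found on several rows, the row with the most counts was used. Separate cultures or animals are stated only in the design text, as 2 mice per group. With 2 libraries a group, p-values rest on the spread edgeR shares across genes. Intervals and the limit of 3 counts cover counting error alone.

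The members, the 6 gene lists and the 15 marker lists were chosen with earlier results of these data known. Named genes were all members, the 6 genes nearest to Ret, and up to 4 genes of each list by smallest p. Fgfr2, Fgfr3 and Pdgfra without control replicate 1, Rara, Sox10 and Pax8 levels, Alpl, Ibsp, Sp7 and Spp1, and Xist were named after their values were seen. Alternatives were median-of-ratios scaling, total counts, no filter, 5 CPM in 2 libraries, DESeq2 1.42.0, limma-voom (limma 3.58.1), a replicate block by edgeR and DESeq2, and leaving out each library. Figures used matplotlib 3.10.9.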

Additional observations from a re-analysis of the deposited data

How the results depend on the processing

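Over the 12 alternatives in which it could be fitted, the log2 fold change of Ret ran from 1.10 to 1.203. That of Gfra2 stayed below 0 in 12 of 12 and those of Gfra1 and Gfra4 in 11 of 11, since with the filter of 5 CPM neither was kept. With 1 library left out Gfra1 ran from -1.78 to -1.05, Gfra2 from -1.70 to -0.94 and Gfra4 from -0.94 to -0.30. Gdnf ran from -0.26 to 0.53 (above 0 in 9 of 11 alternatives) and Artn from -0.80 to 0.52 (below 0 in 10 of 11; above it without control replicate 1). The cause was not tested.

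The count of genes called over the whole table was 0 by edgeR and 23 by DESeq2, which called 14 once replicate number was a block. With 1 library left out it ran from 0 to 183 (183 without control replicate 1, 21 without control replicate 2). The count of other receptor tyrosine kinases called ran from 0 to 3 with 1 library left out, with 3 without control replicate 1. A lone library in a group was assumed to vary like the others. The other 5 lists had 0 calls under all 12 alternatives.

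Replicate numbers do not pair the animals in the labels. Deviations of same-numbered libraries correlated across genes (r = 0.24, and 0.17 without X and Y genes). With a replicate block edgeR called 0 genes, and Ret had a log2 fold change of 1.15 (SE 0.15). Depth limited Gfra3, Nrtn and Pspn, at 0 to 8 counts per library.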
